A study of Homo sapiens with 12 samples.

Results

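The replication-dependent histone genes were taken from the gene table as all entries whose symbol begins with HIST1H, HIST2H, HIST3H or HIST4H and whose description does not call them a pseudogene. This gave 68 of 52889 gene entries, and 18 histone pseudogene entries were left out. The HIST1 cluster held 53 of the genes, HIST2 held 11, HIST3 held 3 and HIST4 held 1. By product, 6 genes encode the linker histone H1, 16 encode H2A, 18 encode H2B, 13 encode H3 and 15 encode H4.

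Chromatin accessibility was measured by ATAC-Seq, in which a transposase cuts and tags open DNA, in 12 samples of HEK293T cells, a human embryonic kidney line that carries the SV40 large T antigen. Mock cells carried the empty vector pSBTet-GP, and d0 cells expressed MLL-AF4 constitutively. In d3 cells, which also expressed MLL-AF4 constitutively, an inducible AF4-MLL gene had been switched on with 1 µg/ml doxycycline for 48 h. The labels give d28 cells the genotype of d0, and the paper's account adds that their AF4-MLL had been induced and then shut down for 25 days. Each group had 3 biological replicates, numbered 1 to 3. The fusion genes were brought in on Sleeping Beauty vectors under vector promoters, MLL-AF4 by stable and AF4-MLL by transient transfection with selection, so each sample is a pool of transfected cells and no clone, and the harvest day of Mock is not given.

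Replication-dependent histone genes are short genes without introns that are transcribed mainly in S phase, when newly made DNA has to be packed into nucleosomes. H2A, H2B, H3 and H4 form the nucleosome core, and H1 binds the linker DNA between cores. The genes lie in clusters, and many H2A and H2B genes sit head to head with a short shared promoter between them. NPAT, a coactivator at histone locus bodies, drives their transcription, and their mRNAs end in a stem-loop bound by SLBP in place of a poly(A) tail.

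In RefSeq (GRCh38.p14), to which all 68 genes matched by older symbol, HIST1 lay on chromosome 6 in 4 blocks set apart by gaps of over 200 kb. The blocks ran over chr6:25726063-25727345 with 2 genes, chr6:26017032-26285534 with 30, chr6:27132316-27147562 with 5 and chr6:27807479-27893891 with 16. HIST2 spanned chr1:149782689-149887965, HIST3 chr1:228424845-228458558, and HIST4H4 stood alone at chr12:14770720-14771131.

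Promoters of 63 of the 68 genes were in the RefSeq table, each with 250 bases before and 50 after the start. They were searched on both strands for 5 short motifs, and matches of different motifs were allowed to overlap. The CCAAT box, spelled CCAAT, stood in all 6 H1, 15 H2A, 18 H2B and 11 H3 promoters, but in 3 of 13 H4 promoters (23.1%), against 35.6% of 27242 other promoters of the same length. The core of the H4 element, searched as GGTCCG, stood in 12 of 13 H4 promoters (92.3%), against 11.1% of the others. For the H1 box, searched as AAACACA, these shares were 6 of 6 H1 promoters and 5.74% of the others. The octamer known from H2B promoters, searched as ATTTGCAT, was found in 14 of 18 H2B promoters (77.8%) and in 10 of 15 H2A promoters (66.7%), in none of the H1, H3 or H4 promoters, and in 1.72% of the others. H2A and H2B genes that sit head to head have starts 194 to 248 bases apart. Their searched stretches therefore hold much of the same DNA, and a match can count for both genes. A TATA box, searched as TATAAA, was present in 43 of 63 promoters (68.3%, against 11.8%), and on the sense strand its first base lay at a median of 31 bases before the start in 38 genes. Members had a lower GC content than other promoters, with a median of 43.3% against 58.3%.

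The 250 bases before the start are shown for the 5 genes that passed the test in a comparison and for HIST1H2BM, which had almost no reads although its promoter holds the CCAAT box and octamer of its class. Capitals mark the motifs listed above, on either strand and read 5′ to 3′ along the gene.

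HIST1H1E, chr6:26156079-26156328 (plus strand): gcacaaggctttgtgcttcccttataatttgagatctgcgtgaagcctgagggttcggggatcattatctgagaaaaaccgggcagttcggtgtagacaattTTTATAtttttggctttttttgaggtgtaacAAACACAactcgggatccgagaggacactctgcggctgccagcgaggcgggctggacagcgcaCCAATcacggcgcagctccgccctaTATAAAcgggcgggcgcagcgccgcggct
HIST2H2BE, chr1:149886683-149886932 (minus strand): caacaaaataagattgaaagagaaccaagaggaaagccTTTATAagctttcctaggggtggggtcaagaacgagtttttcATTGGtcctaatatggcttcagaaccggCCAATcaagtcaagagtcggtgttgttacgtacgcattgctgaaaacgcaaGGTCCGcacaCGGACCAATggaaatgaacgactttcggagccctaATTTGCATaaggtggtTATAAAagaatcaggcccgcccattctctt
HIST2H4A, chr1:149832407-149832656 (plus strand): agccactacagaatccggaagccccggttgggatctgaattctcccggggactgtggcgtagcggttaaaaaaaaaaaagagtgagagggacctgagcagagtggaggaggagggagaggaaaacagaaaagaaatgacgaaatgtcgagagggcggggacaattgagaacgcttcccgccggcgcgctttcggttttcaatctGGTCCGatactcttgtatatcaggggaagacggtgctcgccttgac
HIST2H2AA4, chr1:149850811-149851060 (plus strand): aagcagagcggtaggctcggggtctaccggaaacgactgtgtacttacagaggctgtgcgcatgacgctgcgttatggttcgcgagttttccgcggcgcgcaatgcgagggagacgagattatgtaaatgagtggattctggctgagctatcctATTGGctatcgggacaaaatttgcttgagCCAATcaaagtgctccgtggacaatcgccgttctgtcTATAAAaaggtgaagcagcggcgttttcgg
HIST3H2BB, chr1:228457853-228458102 (plus strand): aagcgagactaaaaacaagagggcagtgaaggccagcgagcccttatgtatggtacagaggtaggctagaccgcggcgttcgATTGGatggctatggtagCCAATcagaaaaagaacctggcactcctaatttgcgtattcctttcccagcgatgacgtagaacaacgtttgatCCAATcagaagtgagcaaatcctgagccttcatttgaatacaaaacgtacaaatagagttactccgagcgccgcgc
HIST1H2BM, chr6:27814772-27815021 (plus strand): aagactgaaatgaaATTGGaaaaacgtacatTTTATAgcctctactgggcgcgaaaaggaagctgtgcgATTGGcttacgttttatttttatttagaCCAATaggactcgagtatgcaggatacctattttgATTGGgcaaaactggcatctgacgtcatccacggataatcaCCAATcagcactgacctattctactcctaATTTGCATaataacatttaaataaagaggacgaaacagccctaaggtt

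The H1 box of HIST1H1E, the CCAAT, octamer and TATA letters of HIST2H2BE and the H4 core of HIST2H4A are the class motifs in this order. HIST3H2BB has 3 CCAAT boxes and neither the octamer nor the TATA box in these letters, whereas HIST1H2BM has 5 CCAAT boxes and the octamer, and its TATA letters occur on the antisense strand far from the start and not on the sense strand. The HIST2 cluster contains a duplication: the 300-base promoters of HIST2H4A and HIST2H4B were identical, those of HIST2H2AA3 and HIST2H2AA4 shared an unbroken run of 299 bases, and those of HIST2H3A and HIST2H3C 1 of 296 bases. How reads that align to several places were assigned is not given in the sources used here, so the values of these copies, and of histone coding sequences that resemble each other, are uncertain per gene.

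The table held 353430 to 3539937 counts per sample, of which mitochondrially encoded genes took 26.4% to 27.0% in Mock, 42.0% to 45.6% in d0, 32.8% to 44.1% in d3 and 63.6% to 68.5% in d28. The other entries gave 257857 to 1116385 counts, among them 488 to 1931 for the histone genes. Values below are normalized counts, that is counts divided by a size factor for each sample (TMM factors from edgeR, scaled to the mean sample). Markers of embryonic kidney and neuron-like cells (PAX2, LHX1, NEFM and NEFL) summed to 64.1 to 94.5 normalized counts, with overlapping ranges in all 4 groups. Over 4 genes of liver, blood and muscle (ALB, PTPRC, CD3E and MYOD1) the sum was 19.5 to 33.5 in Mock, 28.5 to 43.6 in d0, 32.5 to 40.2 in d3 and 17.6 to 29.0 in d28, so that d28 lay below d3 and the other groups overlapped. Both lists had been shortened by 1 gene each with their values known, which bears on how these ranges overlap, and their part in the differences was not tested.

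Reads were found over most histone genes, and their levels differed widely within each cluster. A gene was tested where its mean normalized count was above 2 in at least 1 group, and 54 of 68 members passed (79.4%), against 27579 of all 52889 entries (52.1%). Of the 54, 48 were above that level in all 4 groups, and HIST1H2BG, HIST1H3G and HIST1H4I were above it in 1 group alone. All 11 HIST2 genes and HIST4H4 passed, together with 40 of 53 HIST1 genes and 2 of 3 HIST3 genes. Per kb of RefSeq span, over the 61 genes of at most 1 kb, the median was 16.2 normalized counts per kb in HIST1 (49 genes) and 38.3 in HIST2 (8 genes).

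The HIST3 pair headed the order per kb. HIST3H2BB, which encodes H2B, had 142 normalized counts per kb and HIST3H2A, which encodes H2A, had 128, followed by the H2B gene HIST1H2BN with 122, the H4 gene HIST2H4A with 106 and HIST4H4 with 98.4. Without a correction for length, the highest mean normalized counts over the 12 samples were 66.4 for HIST1H2BN, 65.4 for HIST3H2A, 64.7 for HIST3H2BB, 55.3 for the H2B gene HIST2H2BE and 47.1 for HIST2H4B. HIST1H2BN ranged from 66.4 to 83.8 in Mock, 57.2 to 77.7 in d0, 59.3 to 79.6 in d3 and 52.2 to 66.1 in d28, so that its d28 samples lay below its Mock samples and the other groups overlapped. The spread over samples of these 3 leading genes overlapped, and their order was not tested.

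**Figure D1:**
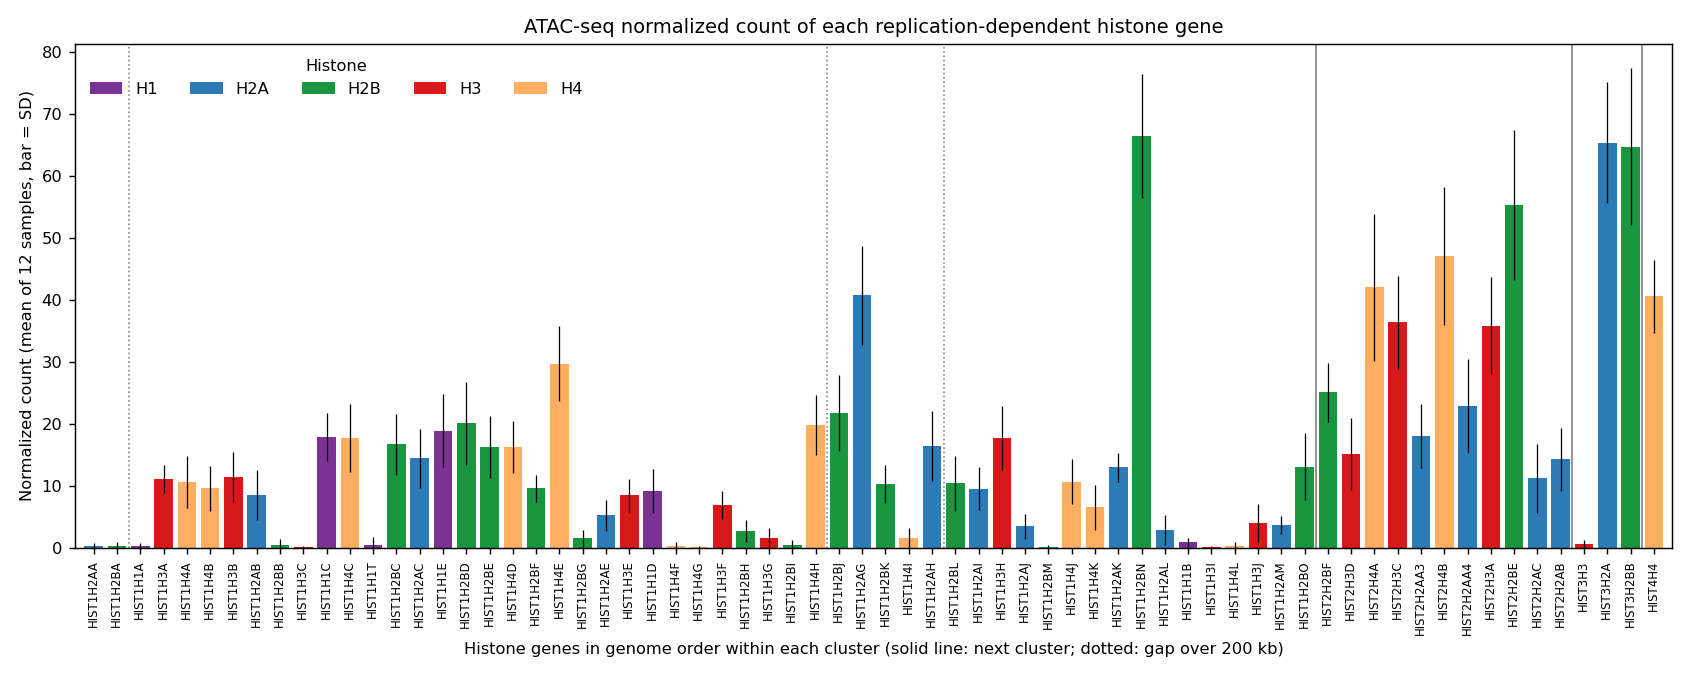
Mean normalized count of each of the 68 genes over 12 samples (bars; error bars are the SD over the 12 samples), in genome order within each cluster and coloured by histone type. HIST1 holds stretches near 0 beside high genes such as HIST1H2BN (66.4), while the 11 HIST2 genes lie between 11.2 and 55.3.

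The 14 genes that were not tested had between 1 and 10 reads in total over all 12 samples. They did not stand singly only: HIST1H2BB and HIST1H3C were neighbours within 2.64 kb, HIST1H4F and HIST1H4G within 6.60 kb, and HIST1H1B, HIST1H3I and HIST1H4L within 6.74 kb. HIST1H2AA and HIST1H2BA, with starts 215 bases apart, were followed by HIST1H1A as the next member along the chromosome. The remaining 4 were HIST1H1T, HIST1H2BI, HIST1H2BM and HIST3H3. HIST1H1T had 0.64 normalized counts per kb, against 43.8 for HIST1H4C and 27.7 for HIST1H2AC, the nearest genes of at most 1 kb on either side.

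Genes known for expression in testis were among them. HIST1H1T, the testis H1, had 0 counts in the 3 Mock, 3 d0 and 3 d3 samples and 5 in d28, and HIST3H3, the testis H3, had 1, 1, 2 and 4 counts in Mock, d0, d3 and d28. HIST1H2AA had 0, 0, 1 and 3 counts, and its partner HIST1H2BA had 1, 0, 2 and 0. In Mock, a gene with 0 of 943766 nuclear counts may still have had up to 0.318 per 100000, which is above the 0.219 of HIST1H1T in d28. The limit for 0 counts in d3 was lower, at 0.160. Such limits cover counting error only, and differences between the groups were not tested for these genes. HIST1H1A and HIST1H1B, which encode further H1 variants, had 4 and 10 counts in total.

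All 5 motifs were found both in tested members and in those that were not tested. A TATA box was in 70% of the 50 tested members with a promoter and in 61.5% of the 13 others, a CCAAT box in 82% and 92.3%, and an octamer in 38% and 38.5%. The H4 core was in 26% and 15.4% and the H1 box in 12% and 23.1%. These shares were not tested.

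Divergent H2A and H2B genes formed 10 pairs. These pairs, with starts 194 to 248 bases apart, gave similar counts in some cases and very different counts in others. HIST3H2A and HIST3H2BB differed by a factor of 1.01 in mean normalized count, HIST1H2AI and HIST1H2BL by 1.09 and HIST1H2AC and HIST1H2BC by 1.16. In the pair HIST2H2AC and HIST2H2BE, however, the H2B gene was 4.96 times higher, and in HIST1H2AK and HIST1H2BN 5.12 times. HIST1H2AJ had 44 reads in total and HIST1H2BM, 245 bases away, had 1. These ratios are not corrected for length, and HIST2H2BE and HIST1H2BC have RefSeq spans of over 1 kb.

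Summed over clusters, HIST2 and HIST3 lay on opposite sides of Mock. HIST2 summed to 278, 262 and 227 normalized counts in the Mock samples, 319, 325 and 280 in d0, 369, 421 and 394 in d3, and 330, 345 and 326 in d28. With TMM factors all 9 samples with a fusion gene lay above the 3 Mock samples, by as little as 280 against 278, and d3 was highest (395 ± 26.2 against 256 ± 26.2 in Mock, SD, n = 3, a ratio of 1.54). HIST3 summed to 154, 168 and 151 in Mock, 131, 112 and 132 in d0, 122, 137 and 132 in d3, and 115, 112 and 100 in d28, and here all 9 samples lay below Mock, with ratios of 0.792, 0.828 and 0.693. HIST1 summed to 502 ± 27.2 in Mock, 503 ± 26.1 in d0, 611 ± 38.9 in d3 and 540 ± 26.0 in d28, with overlap between groups except that every d3 sample was above all the others. HIST4H4 was 41.5 ± 4.75, 41.6 ± 10.8, 42.7 ± 2.89 and 36.3 ± 3.07, and its groups overlapped apart from d28 against d3. As counts per 100000 nuclear counts, without TMM factors, HIST2 was 53.8 ± 5.58, 62.0 ± 4.49, 78.3 ± 5.57 and 59.1 ± 2.84 and HIST3 33.2 ± 1.83, 25.2 ± 2.43, 25.9 ± 1.68 and 19.3 ± 0.900 in the same order, while the mean of HIST1 in d28 was then below that of Mock (95.6 ± 7.07 against 106 ± 5.71) with overlapping samples. On this scale HIST2 overlapped Mock in d0 and d28, where d0 replicate 3 (56.8) and d28 replicate 1 (56.1) were below Mock replicate 1 (58.7), and its d3 samples and all 9 HIST3 samples stayed apart from Mock. These sums were not tested, and in bulk samples a weaker signal in every cell and a smaller share of cells with the signal cannot be told apart.

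**Figure D2:**
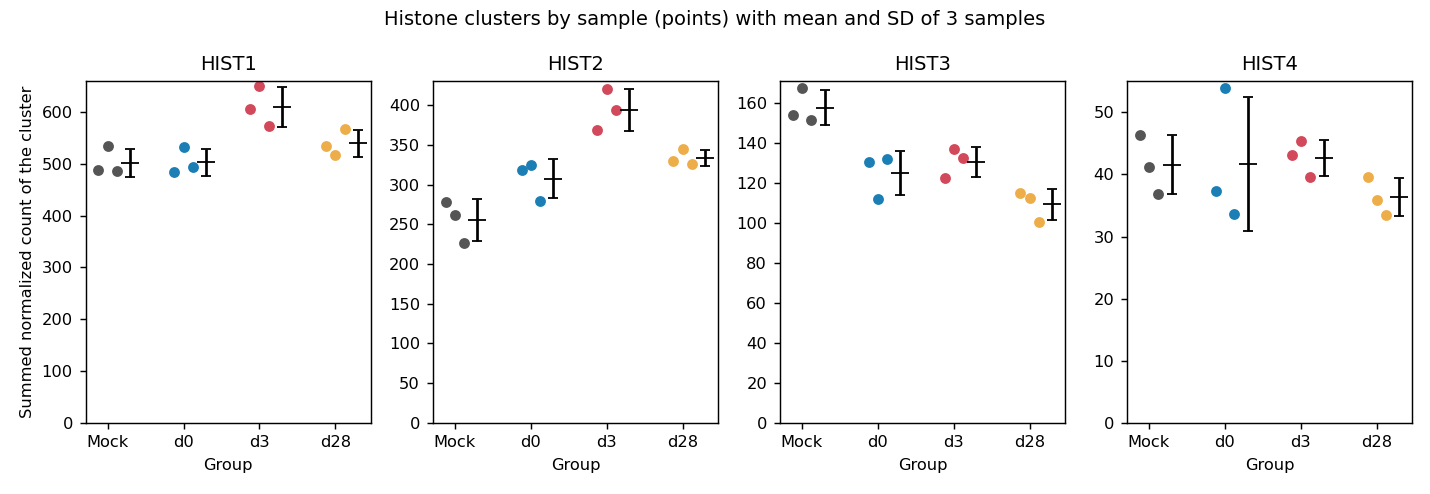
Summed normalized counts of the 4 clusters in each of the 12 samples (points), with the mean and SD of each group of 3 beside them. In HIST2 all d0, d3 and d28 samples lie above Mock (mean 256), which per nuclear counts holds for d3 but not for each d0 and d28 sample, and in HIST3 all lie below it (mean 158).

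The comparison of d3 with Mock asks what changed when both fusion proteins were present. Doxycycline is given in the labels for d3 alone, so its effect cannot be told apart from that of the fusion proteins. Of 54 tested members, HIST1H1E and HIST2H2BE rose and none fell at an adjusted p below 0.05 (edgeR quasi-likelihood test with Benjamini-Hochberg adjustment), against 0.834% of all tested genes called higher and 0.439% called lower. The median log2 fold change of the members was 0.49, against 0.03 over all tested genes, and 40 of 54 members were above 0, against 52.1%. HIST1H4I, HIST1H3J and HIST1H2BH had means under the filter level of 2 in Mock and above it in d3, and HIST1H2AL the reverse. The signs of these genes follow in part from the filter, which all tested genes had passed.

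HIST1H1E encodes H1.4, an H1 variant common in somatic cells. Its normalized counts were 11.98, 10.3 and 9.23 in Mock and 25.4, 24.8 and 23.8 in d3, which is a log2 fold change of 1.21 (SE 0.33, adjusted p = 0.0299 by edgeR). In d0 the values were 23.6, 15.6 and 16.8 and in d28 23.2, 19.7 and 21.8, so that all 9 samples were above Mock, although neither comparison passed (d28 against Mock 1.03, SE 0.34, adjusted p = 0.103). The gene rests on 5 to 8 reads in each Mock sample. Over 14 alternatives its adjusted p ran from 0.0133 to 0.187, and the call was lost in every fit that left out a Mock or d3 replicate, lowest without d3 replicate 3 (0.0608) and highest without Mock replicate 2 (0.150), as well as with nuclear library sizes or DESeq2.

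HIST2H2BE, which encodes an H2B and has a long transcript that also ends in a poly(A) tail, rose from 40.4, 50.3 and 27.7 in Mock to 60.8, 72.7 and 61.0 in d3 (0.67, SE 0.19, adjusted p = 0.0425). The d0 values of 64.7, 65.2 and 51.8 were also above every Mock sample, but gave an adjusted p of 0.280 (0.57, SE 0.21). Here Mock replicate 3 was the lowest sample, and without it the difference was 0.52 with an adjusted p of 0.308. The adjusted p was also above the threshold without Mock replicate 1 (0.134), d3 replicate 1 (0.0532), d3 replicate 2 (0.204) and d3 replicate 3 (0.0608), and was 0.0236 without Mock replicate 2, while over all 14 alternatives it ran from 0.0133 to 0.308. The call was also lost with RLE factors, filterByExpr, nuclear library sizes, only the compared groups or DESeq2.

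At d3 the whole HIST2 cluster lay above Mock, with 1 of its 11 genes past the test. All 11 had log2 fold changes above 0, from 0.41 for the H3 gene HIST2H3C to 0.92 for the H2A gene HIST2H2AA4, with a median of 0.59, and they kept this sign in each of the 14 alternatives. In 6 of the 11 the d3 samples did not overlap Mock, against 9.84% of all genes. The 11 include the copied pairs named above, which may share reads. Counts of HIST2 genes, here and below, may therefore not stand for 11 separate readings. The 40 tested genes next to HIST2 had a median of 0.22 with 30 above 0. HIST2H2AA4 had 21.0, 18.0 and 11.1 in Mock and 27.7, 36.8 and 33.3 in d3 (0.92, SE 0.28, adjusted p = 0.0636).

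In HIST1, 28 of 40 genes were above 0 with a median of 0.44. The 23 tested genes of other kinds between its outermost members, within or between the blocks, had a median of 0.29 and the 40 beside it 0.27. Chromosome 6 as a whole had a median of 0.07 without the members, and chromosome 1 a median of -0.01. By histone type the medians were 0.49 for H2A, 0.52 for H2B, 0.57 for H3 and 0.50 for H4, whereas the 3 tested H1 genes ranged from -0.14 to 1.21. When the test was limited to genes with enough counts in most samples (filterByExpr, 37 members), the median of all members was 0.35 and that of HIST1 0.17.

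A rule of size asked for an unadjusted p below 0.05, a log2 difference larger than 1 and a group mean above 2, and it took 4 members, 3 higher and 1 lower, against 2.02% and 2.16% of all genes. Besides HIST1H1E these were the H3 gene HIST1H3J, with 0, 2 and 1 reads in Mock and 7, 7 and 11 in d3, the H4 gene HIST1H4J, with 4, 5 and 3 reads in Mock and 20, 16 and 11 in d3, and the H2A gene HIST1H2AL, lower at d3. None of the latter 3 passed after adjustment (adjusted p = 0.194, 0.320 and 0.356 by edgeR). HIST1H3J was under the filter level in Mock (mean 1.47) and above it in d0 (2.32), d3 (6.70) and d28 (5.43). Its place in the comparisons with Mock follows in part from the filter and is given as a description. Members with an unadjusted p below 0.05 numbered 12 higher and 2 lower, against 6.45% and 4.85% of all genes, and DESeq2 called none of the members.

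In d0, where MLL-AF4 was present alone, no member passed the test against Mock in edgeR or DESeq2, against 0.609% of all genes. With an unadjusted p below 0.05 there were 4 higher and 1 lower, against 5.04% and 4.61%. The median log2 fold change was 0.05 in the members and 0.00 over all genes, and 30 of 54 were above 0, against 49.8%. HIST2 had 8 of 11 genes above 0 and a median of 0.26, and the 40 genes beside it had 0.17. That median was 0.14 without Mock replicate 3, 0.13 without d0 replicate 1 and 0.43 without Mock replicate 1. The smallest unadjusted p belonged to HIST2H2BE (0.00664), HIST2H4B (0.0140) and HIST1H2AB (0.0151) among the higher genes, and to HIST3H2A (0.0143), HIST1H3B (0.0904) and HIST1H2AI (0.137) among the lower.

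HIST3H2A had 71.9, 85.1 and 77.5 normalized counts in Mock and 53.5, 59.6 and 59.6 in d0 (-0.45, SE 0.18, adjusted p = 0.385 by edgeR). The d0 samples lay below all Mock samples, as in 4 of the 54 members, against 7.07% of all genes. The 1 gene beyond the rule of size was HIST1H2AB, an H2A gene with 1, 6 and 2 reads in Mock and 6, 12 and 8 in d0 (1.31, SE 0.54, adjusted p = 0.389), against 2.32% of all genes.

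At d28, when AF4-MLL had been shut down, HIST3H2BB fell relative to Mock and no member rose at an adjusted p below 0.05, against 0.609% and 0.845% of all genes. Its normalized counts were 80.8, 82.5 and 73.8 in Mock, 75.9, 52.5 and 72.5 in d0, 60.8, 60.8 and 68.2 in d3 and 50.1, 53.4 and 45.1 in d28, and d28 lay below all Mock and all d3 samples. The log2 fold change was -0.66 (SE 0.17, adjusted p = 0.0136 by edgeR), and DESeq2 also called it (-0.68, adjusted p = 0.0290). Its partner HIST3H2A had 63.8, 57.7 and 55.3 in d28, again below every Mock sample, without passing (-0.39, SE 0.17, adjusted p = 0.271). Of the 40 tested genes beside HIST3, 24 were below 0 with a median of -0.11, and 3 were called lower. Against Mock, 25 of these 40 were below 0 at d3 (median -0.14) and 16 at d0 (median 0.04). Over 14 alternatives the adjusted p of HIST3H2BB ran from 2.03e-05 to 0.181, and the call was lost without Mock replicate 1 (0.0817), Mock replicate 2 (0.181) or d28 replicate 1 (0.0780), and without a filter on low counts (0.0799).

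At d28, 10 of 11 HIST2 genes had a log2 fold change above 0 (7 of 11 with nuclear library sizes), with a median of 0.47 against 0.03 over all genes and 0.21 in the 40 genes beside it, and none of the 11 passed the test. The H2A gene HIST2H2AA3 had 15.0, 16.8 and 7.38 in Mock and 23.2, 26.7 and 17.5 in d28 (0.78, SE 0.32, adjusted p = 0.235), without overlap. HIST2H4B had 35.9, 25.8 and 42.5 in Mock and 54.9, 50.6 and 40.8 in d28 (0.58, SE 0.21, adjusted p = 0.151), with overlap. Over all members the median was 0.16 and 34 of 54 were above 0, against 52.4% of all genes. With sizes taken from nuclear counts alone, without TMM factors, the median over all genes moved to -0.24, and the members' median to -0.10. Measured from the median of all genes, HIST2 then stood at 0.46 and all members at 0.15, against 0.44 and 0.13 with TMM factors. The mitochondrial share of the reads was highest in d28, and its part in these differences was not tested.

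HIST1H2AL had the lowest log2 fold change of the members at d28, and the interval below does not allow for this choice. It passed the filter through Mock and d0 alone (means 5.51 and 3.03, against 1.64 in d3 and 0.954 in d28). Its place in the comparisons with Mock and d0 follows in part from the filter and is given as a description. Its reads numbered 6, 3 and 2 in Mock, 2, 1 and 4 in d0, 1, 3 and 2 in d3 and 0, 2 and 1 in d28. Scaled by the size factors of the samples (TMM), 3 reads in d28 against 11 in Mock gave a ratio of 0.135 (95% interval 0.0242 to 0.512 from counting error only). The fitted difference had an adjusted p of 0.0953 by edgeR. The d28 values lay below all Mock values, as in 4 of 54 members, against 7.79% of all genes. Among members past the rule of size at d28, 4 were higher and 1 lower, against 2.98% and 1.82%: HIST1H1E, HIST1H3J, HIST1H4J, HIST1H2AB and HIST1H2AL. For HIST1H3J, which was under the filter level in Mock, this again follows in part from the filter. Unadjusted p values below 0.05 were found for 9 higher and 5 lower members, against 6.63% and 5.85%.

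**Figure D3:**
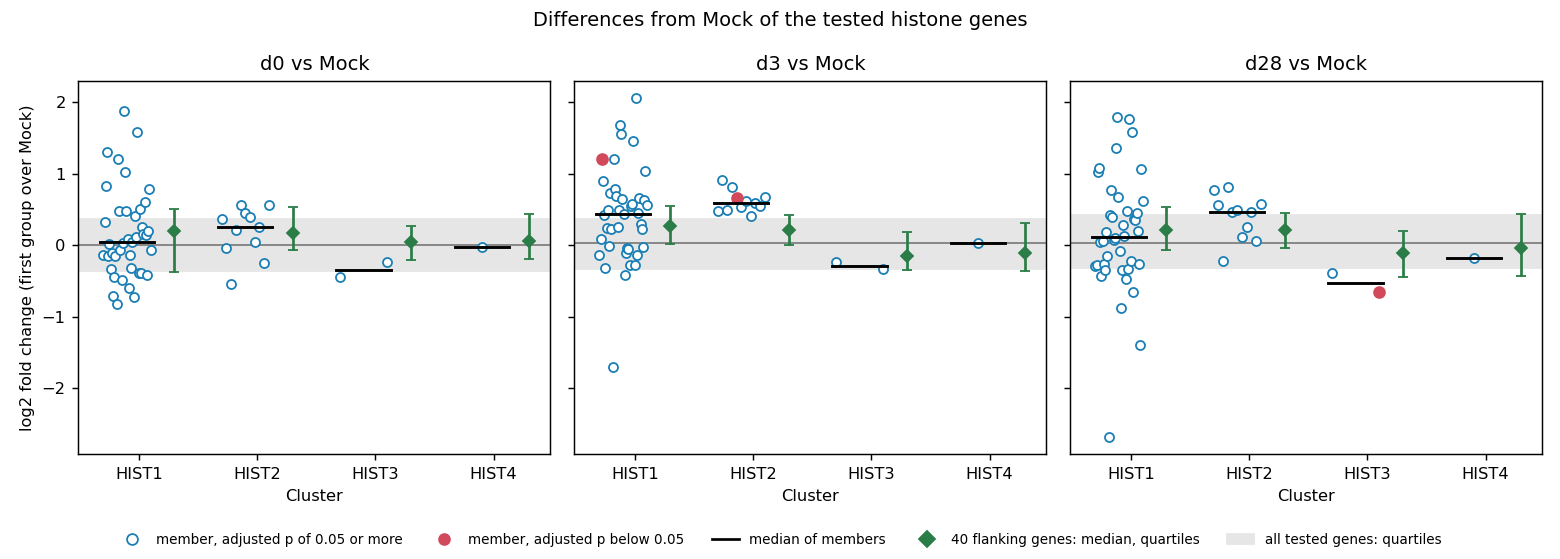
log2 fold change against Mock of the tested members (circles; filled where the adjusted p is below 0.05) with the median of each cluster (black line), the median and quartiles of 40 flanking genes (diamonds), and the quartiles and median of all 27579 tested genes (grey band and line). All 11 HIST2 genes lie above 0 at d3 (median 0.59), and both tested HIST3 genes lie below 0 in each comparison.

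The comparison of d3 with d0 asks what changed with the induction of AF4-MLL over 48 h. The d3 cells also went through a transient transfection, selection with Blasticidin and doxycycline, whose effects cannot be told apart from that of AF4-MLL. HIST2H4A and HIST2H2AA4 rose and none fell, against 0.598% and 0.312% of all genes. HIST2H4A, which encodes H4, had 32.3, 29.8 and 36.3 normalized counts in d0 and 51.6, 59.1 and 61.8 in d3 (0.80, SE 0.20, adjusted p = 0.0140 by edgeR). In Mock it had 47.9, 42.5 and 24.0 and in d28 39.6, 47.1 and 32.0, so that d3 was above every sample of the other groups. Across 14 alternatives the adjusted p ran from 0.00466 to 0.133, and the call was lost without d0 replicate 1 (0.0852), d0 replicate 2 (0.108) or d3 replicate 3 (0.0896).

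HIST2H2AA4, which encodes H2A, had 16.2, 18.4 and 15.5 in d0 and 27.7, 36.8 and 33.3 in d3 (0.96, SE 0.27, adjusted p = 0.0436). Its call was lost without any d0 replicate (0.177, 0.108 and 0.176 for replicates 1, 2 and 3) and without d3 replicate 2 (0.171) or 3 (0.134), as well as with RLE factors (0.0664), nuclear library sizes (0.0596) or the replicate block (0.0517), and the adjusted p ran from 0.0200 to 0.219 over 14 alternatives. DESeq2 called neither gene.

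Because HIST2H4A and HIST2H2AA4 each have a copy with an identical or near-identical promoter, the copies were also summed. HIST2H4A and HIST2H4B together had 80.9, 95.015 and 73.8 in d0 and 98.6, 115 and 122 in d3, without overlap, and 83.8, 68.3 and 66.5 in Mock. HIST2H2AA3 and HIST2H2AA4 together had 38.6, 32.6 and 31.1 in d0, 43.1, 59.9 and 52.3 in d3 and 47.0, 54.1 and 42.2 in d28, so that both later groups stood above d0, and d3 and d28 overlapped. Taken alone, the copies differed: HIST2H4B gave a log2 fold change of 0.12 and HIST2H2AA3 of 0.12 between d3 and d0. The RefSeq span of HIST2H4B, however, is 16753 bases against 396 for HIST2H4A, and it encloses HIST2H2AA4 and HIST2H3A. The interval counted per gene is not given, so the counts of HIST2H4A and HIST2H4B may cover unlike stretches. The summed values were not tested.

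All 11 HIST2 genes were also above 0 in d3 against d0, with a median of 0.33, against 0.02 over all genes and 0.05 in the 40 genes beside the cluster, and this held in 11 of 14 alternatives. It was 10 of 11 without d0 replicate 1 and 9 of 11 without d0 replicate 3 or without d3 replicate 2. The H2A gene HIST2H2AB had 7.47, 12.8 and 9.06 in d0 and 13.9, 25.7 and 20.6 in d3 (1.03, SE 0.35, adjusted p = 0.135). It and HIST1H3J were the members past the rule of size, both higher, against 1.69% of all genes. Over all members the median was 0.27 with 44 of 54 above 0, against 51.7%, and at an unadjusted p below 0.05 there were 7 higher and 0 lower members, against 6.44% and 5% of all genes. The comparisons of d3 with Mock and with d0 share the d3 samples.

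Between d28 and d0, which asks what lasted, no member passed the test in edgeR or DESeq2, against 1.35% of all genes. By the paper's account, d28 cells had also gone through the transient transfection, Blasticidin, doxycycline and a longer culture. Effects of these steps, and of the higher mitochondrial share in d28, cannot be told apart from a lasting effect of AF4-MLL. At an unadjusted p below 0.05 there was 1 higher, HIST2H2AA4 (0.60, SE 0.28, adjusted p = 0.335), and 1 lower, HIST3H2BB (-0.42, SE 0.17, adjusted p = 0.233), against 6.83% and 5.79%. The median was 0.10 in the members and 0.04 over all genes. Of the 40 tested genes beside HIST3, 25 were below 0 with a median of -0.21. The remaining smallest p values belonged to HIST1H2AG (0.39) and HIST1H2BO (0.61) among the higher genes and to HIST1H2AL (-1.86) and HIST1H1D (-0.61) among the lower, with adjusted p between 0.413 and 0.573.

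Between d28 and d3, after the shutdown, again no member passed in edgeR or DESeq2, against 0.37% of all genes. The shutdown cannot be told apart from the end of doxycycline and selection, the longer culture or the higher mitochondrial share in d28. The median of the members was -0.20, against 0.01 over all genes, and 12 of 54 were above 0, against 50.6%. At an unadjusted p below 0.05 there were 7 lower and 0 higher members, against 4.68% and 4.15%. HIST2H4A led with 51.6, 59.1 and 61.8 in d3 and 39.6, 47.1 and 32.0 in d28 (-0.49, SE 0.17, adjusted p = 0.234), without overlap. HIST1H2AH, an H2A gene, had 23.9, 24.0 and 18.2 in d3 and 12.7, 11.95 and 16.02 in d28 (-0.75, SE 0.27, adjusted p = 0.302), also without overlap, and HIST2H3A, an H3 gene, followed with -0.50 (SE 0.19, adjusted p = 0.314). On the higher side HIST2H2AA3 (0.29), HIST1H2BO (0.32) and HIST1H4D (0.15) had the smallest p, with adjusted p between 0.781 and 0.918. The rule of size took HIST1H4I, an H4 gene with 3, 2 and 4 reads in d3 and 2, 0 and 0 in d28, against 0.693% of genes lower. It passed the filter through d3 alone, so its place there follows in part from the filter and is given as a description.

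Genes that act with or on the histone genes were followed in 3 lists. Of all tested genes, 0.439% were called lower at d3 and 0.609% at d28 against Mock. Relative to d0, 0.312% were called lower and 0.598% higher at d3, and 1.35% in either direction at d28. Of 14 replication-independent histone genes, 11 were tested, and H2AFV, which encodes the variant H2A.Z.2, was the only one called against Mock. It had 27.9 ± 11.1 normalized counts in Mock, 23.6 ± 4.20 in d0, 9.18 ± 5.76 in d3 and 11.0 ± 1.47 in d28 (SD, n = 3). It fell at d3 (-1.51, SE 0.33, adjusted p = 0.00101 by edgeR) and at d28 (-1.28, SE 0.31, adjusted p = 0.00633) relative to Mock, and relative to d0 as well (-1.33, adjusted p = 0.0113, and -1.10, adjusted p = 0.0360). The call at d3 was lost without Mock replicate 3 (0.0751) or d3 replicate 2 (0.0811), that at d28 without Mock replicate 1 (0.108), Mock replicate 3 (0.181) or d28 replicate 1 (0.0834), that of d3 against d0 without d0 replicate 3 (0.156) or d3 replicate 2 (0.224), and that of d28 against d0 without any single replicate (0.0599 to 0.269), with the replicate block (0.0665), with TMM factors before the filter (0.0545) and without a filter (0.105). DESeq2 also called H2AFV at d3 against Mock (adjusted p = 0.0124). For its other calls there were 13 alternatives, without an adjusted p from DESeq2. H1F0, the H1 variant of differentiated cells, rose in d3 relative to d0 (1.14, SE 0.27, adjusted p = 0.00666), from 15.6 ± 8.27 to 34.9 ± 3.54, with 28.2 ± 5.80 in Mock, and the call was lost without d0 replicate 2 (0.0851) or d0 replicate 3 (0.179) and with DESeq2 (0.101).

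Of 23 genes of histone gene transcription and mRNA 3′ end processing, 22 were tested and none was called in any of the 6 comparisons by edgeR, against the shares of all genes given above for each comparison. At an unadjusted p below 0.05, 3 were higher and 2 lower at d3 against Mock, against 6.45% and 4.85% of all genes. NCBP2, a cap-binding subunit (0.80, SE 0.28, adjusted p = 0.162), and CASP8AP2, a partner of NPAT (0.71, SE 0.26, adjusted p = 0.191), had the smallest p of the list. NPAT itself had 13.2 ± 7.04 in Mock, 14.9 ± 4.17 in d0, 17.8 ± 2.98 in d3 and 12.6 ± 2.58 in d28, with overlapping groups.

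All 13 histone chaperone genes were tested and none was called against Mock. Of all tested genes, 0.609% were called at d0, 0.834% higher and 0.439% lower at d3, and 0.845% higher and 0.609% lower at d28. For d28 against d0 the share in either direction was 1.35%. RBBP4, a subunit of the CAF-1 and other chromatin complexes, rose in d28 relative to d0 (0.72, SE 0.17, adjusted p = 0.00425 by edgeR), from 48.7 ± 7.52 to 83.7 ± 16.2, with 60.2 ± 2.39 in Mock, and the call was lost without d0 replicate 1 (0.0888) and with nuclear library sizes (0.0597). The smallest p against Mock belonged to NASP, a chaperone of H1 and H3, at d3 (0.71, SE 0.26, adjusted p = 0.201) and to RBBP4 at d28 (0.42, SE 0.17, adjusted p = 0.221).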

How the data were processed

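The 12 ATAC-Seq samples were grouped by their labels. The authors deposited 1 table of whole-number counts per gene, without normalization. The submitters' processing notes name bcl2fastq, Bowtie2, HTSeq and GRCh38, and the interval counted per gene, the handling of reads with several alignments, duplicates and the shift of reads for the transposase are not given in the sources used here. The protocol in the labels speaks of RNA purification, but the libraries were taken as ATAC-Seq.

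The deposited counts were tested in 6 comparisons, for entries whose mean normalized count passed 2 in any group, with the quasi-likelihood test of edgeR 4.0.16 (R 4.3.3) after TMM normalization, with all 12 samples in the fit and Benjamini-Hochberg adjustment over 27579 genes. DESeq2 1.42.0, the tool the paper names, was an alternative, as were other size factors and filters, fits of only the compared groups, a replicate block and leaving out each replicate. The fit was checked on simulated data for d3 against Mock with 23491 genes, where 53% of 100 genes changed 2-fold and 92% of 100 changed 4-fold were recovered. In the same run 7 unchanged genes were called. The changed genes were drawn from better covered genes, and all genes had the same dispersion (0.0069), so these rates may not hold for histone genes with few reads. The p-values set a difference between groups against the spread between replicates, which the reported fit estimated from all 12 samples. Replicates of each group differed by more than sampling noise (chi-square over degrees of freedom from 1.06 to 1.38). Gene order, spans and promoters came from RefSeq (GRCh38.p14), and the files were linked with Python 3.11.15.

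Named genes were, in each comparison, every member past the adjusted p and the 3 with the smallest unadjusted p in each direction, the 5 highest by mean and per kb, the HIST3 and HIST4 genes, the genes known from testis, and the listed partner genes past the adjusted p or with the 2 smallest p values against Mock. HIST1H3J, HIST1H4J and HIST1H4I were named after their values were seen, since they completed short counts, as were genes given as neighbours or ends of a range. The members and lists were chosen with earlier results of these data known. Of the cell type markers, 2 are not reported here and were left out of the sums with their values known, so the sums are a description only.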

Additional observations from a re-analysis of the deposited data

How the results depend on the processing

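The counts of members called were small and moved with the settings. Past the adjusted p at d3 against Mock, 2 members in the reported fit became 1 with RLE factors, filterByExpr or only the compared groups, 0 with nuclear library sizes or DESeq2, and 4 with TMM factors computed before the filter, a setting chosen after seeing the data. At d28 against Mock the count of 1 became 4 with nuclear library sizes and 0 without a filter, and nuclear library sizes gave 1 instead of 0 for d28 against d0 and 3 for d28 against d3. For d3 against d0 the 2 calls became 1 with RLE factors or nuclear library sizes, and 0 with DESeq2. The count past the rule of size was 0 instead of 1 with filterByExpr at d0, 1 with filterByExpr and 2 with DESeq2 instead of 4 at d3, and 2, 2 and 3 with nuclear library sizes, filterByExpr and DESeq2 instead of 5 at d28. It was 1, 0 and 1 with RLE factors, filterByExpr and DESeq2 instead of 2 for d3 against d0, 1 instead of 0 with nuclear library sizes for d28 against d0, and 2 with nuclear library sizes or only the compared groups and 0 with filterByExpr or DESeq2 instead of 1 for d28 against d3. The median log2 fold change became 0.35 with filterByExpr at d3, and with nuclear library sizes -0.10 at d28, -0.10 for d28 against d0 and -0.38 for d28 against d3. HIST1H4D in d28 against d3 turned from 0.15 to -0.024 with nuclear library sizes and to -0.022 without d3 replicate 2. The cause of these moves was not tested.

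Leaving out each replicate gave 0 calls at d0, 0 to 1 at d3, 0 to 1 at d28, 0 to 2 for d3 against d0 and 0 for d28 against d0 and against d3. Past the rule of size the ranges were 0 to 2 at d0, 3 to 9 at d3, 3 to 8 at d28, 0 to 5 for d3 against d0, 0 to 2 for d28 against d0 and 0 to 2 for d28 against d3. The medians ranged from -0.04 to 0.15 at d0, 0.37 to 0.49 at d3, 0.13 to 0.24 at d28, 0.23 to 0.28 for d3 against d0, 0.04 to 0.11 for d28 against d0 and -0.25 to -0.17 for d28 against d3.

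Replicate numbers did not pair the samples: over 8330 genes, same-numbered samples of different groups correlated between -0.153 and 0.0848, and in no comparison did more than 3 of 6 samples correlate best with their own number. With the replicate block, d3 against d0 gave 1 call (HIST2H4A), and the other counts past the adjusted p stayed at 0, 2, 1, 0 and 0. At 488 to 1931 reads per sample over 68 genes, small differences of single genes were not detectable.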
